A study of Arabidopsis thaliana with 30 samples.

Results

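The Calvin cycle and photorespiration are represented here by 42 nuclear loci of Arabidopsis thaliana, 23 of the Calvin cycle and 19 of photorespiration, out of 27588 loci quantified. They were chosen by enzyme name, not by expression: the Rubisco small subunits and Rubisco activase, the enzymes of the reduction and regeneration phases with the CP12 regulators, and the enzymes and plastid transporters that recycle phosphoglycolate. The 42 loci comprise 94 transcripts, and all 42 passed the filter on low counts in every comparison. Rosette leaves of 5 genotypes were sequenced after fertilization with bicarbonate or water, with 3 libraries for each of the 10 groups.

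In the Calvin cycle, Rubisco joins CO2 to ribulose bisphosphate (RuBP), phosphoglycerate is reduced to triose phosphate with ATP and NADPH from the light reactions, and the remaining enzymes rebuild RuBP. When Rubisco takes oxygen in place of CO2 it forms phosphoglycolate, which photorespiration returns to phosphoglycerate through the chloroplast, the peroxisome and the mitochondrion, with release of CO2 and ammonium. β-carbonic anhydrases interconvert CO2 and bicarbonate, and PsbS is the thylakoid protein that triggers the fast dissipation of excess light as heat.

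The double line oePsbSoeβCA1 carries βCA1 in the oePsbS background, and the triple line oePsbSoeβCA1βCA2 carries βCA1 and βCA2 in the same background. Transcript levels only are given here. From immunoblots the paper reports markedly less PsbS protein in the double and triple lines than in oePsbS, close to that of Col-0. The paper also measured βCA1, βCA2 and PsbS transcripts in these lines by RT-qPCR, and βCA1 and βCA2 protein by immunoblot. According to its methods, the lines kept were those with the highest overexpression of the βCA genes. The methods name the 35S promoter for the first construct and ROLD and 35S promoters for the second. oePsbS overexpresses PsbS alone, npq4-1 lacks PsbS, and Col-0 is the wild type. Plants received 10 ml of 3 mM NaHCO3, buffered to neutral pH with KOH, or of water every 2 days from 2 weeks of age, in long days under 120 µmol of photons per square metre and second. No water control matched for sodium, potassium or pH is described, so bicarbonate below stands for the whole solution. The methods mention 3 biological samples and 3 technical repeats without saying which of these the libraries are, or whether the libraries of a construct are its independent lines. The p-values therefore measure the spread between libraries, which may be technical.

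Libraries held 15346368 to 18326430 assigned reads (median 16877156). The targeted genes were checked first, in CPM (read counts scaled to the same library total). PSBS averaged 3398 CPM with bicarbonate and 3914 with water for the double line, 4578 and 5366 for the triple, 5181 and 4059 in oePsbS, 0.456 and 2.33 in npq4-1, and 1636 and 1619 in Col-0. BCA1 reached 12947 and 14747 CPM in 2 of the bicarbonate libraries of the double line and at least 10940 in its water libraries, but only 2409 CPM in the library labelled oePsbSoeβCA1, bicarbonate, replicate 3, against 2418 to 2564 CPM in oePsbS with water. Its PSBS was 3529 CPM, against 3324 to 3341 CPM in the other bicarbonate libraries of the double line. Its BCA2 was 1118.5 CPM, against 1125.5 to 1330.6 CPM in them. By BCA1 that library goes against its label, for a reason that was not tested. Counts, medians and named genes of the comparisons that hold it are also given without it, as are the list counts of its difference from oePsbS, while the sums over gene copies were not recomputed. Without it PSBS averaged 3333 CPM and the 42 genes took 6.74% of the reads in the double line with bicarbonate. In the triple line BCA1 stood at 3342 to 3895 CPM and BCA2 at 1813 to 1919 CPM with bicarbonate, against 3628 to 4188 and 1769 to 1955 CPM in oePsbS with bicarbonate, so the triple line did not exceed oePsbS there. With water it did, with 3611 to 4071 CPM of BCA1 and 1604 to 1883 CPM of BCA2, against 2418 to 2564 and 1207 to 1239 CPM in oePsbS. Levels of BCA1 and BCA2 in Col-0 and npq4-1 are not given here, so overexpression relative to the wild type cannot be read from these values. The 6 root markers, 2 of them at 0 in all libraries, summed to at most 0.181 CPM, and summed markers of flowers lay between 1.06 and 17.4 CPM, of guard cells between 63.1 and 107 CPM, of vasculature between 101 and 159 CPM and of epidermis between 1300 and 1545 CPM.

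Many of the 42 genes were among the most abundant transcripts of the rosette. Levels between genes are compared in TPM, the share of transcripts after correction for length. Averaged over the 30 libraries, 16 of the 42 genes exceeded 1000 TPM, and 16 stood among the 100 loci of highest mean TPM. RBCS1A, a Rubisco small subunit gene, averaged 14938 TPM and ranked 2 of all loci. Rubisco activase (RCA), the chaperone that frees inhibited Rubisco sites, averaged 7471 TPM, ahead of RBCS3B at 6830, RBCS2B at 3958 and RBCS1B at 3033 TPM. The plastid aldolase FBA2 followed at 2525 TPM, the glyceraldehyde phosphate dehydrogenase subunits GAPA-2, GAPA and GAPB at 1866, 1711 and 1361 TPM, and phosphoribulokinase (PRK), which makes RuBP, at 1233 TPM. The most abundant photorespiratory transcripts were mitochondrial serine hydroxymethyltransferase SHM1 at 1519 TPM and peroxisomal glutamate:glyoxylate aminotransferase GGT1 at 1361 TPM. Only the transketolase copy TKL2, the regulator CP12-3 and the glycolate transporter BASS6 were below 10 TPM, at 6.85, 8.46 and 7.08 TPM. Group means were highest in oePsbS with bicarbonate for 26 of the 42 genes and lowest in oePsbS with water for 24. The matching shares over all genes were not computed, so these counts do not set the 42 genes apart from others.

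For each locus, the 250 bases upstream of the annotated start (TAIR10.1, RefSeq) of its transcript of highest mean TPM were taken. They were searched on both strands for motifs that are common in light-regulated plant promoters. Some windows, such as those of TPI and RBCS1B, overlap the annotated span of their own gene. All 94 transcripts of the 42 loci had the same length in that annotation as in the quantified set. The G-box CACGTG was found in 7 of the 42 windows (16.7%), against 6.58% of 27388 nuclear genes, and the I-box GATAAG in 7 of 42 (16.7%), against 12.4%. The I-box windows were 6 of the 23 Calvin cycle genes (26.1%) and 1 of the 19 photorespiratory genes. The evening element AAAATATCT, a target of clock proteins, was in none of the 42 windows, against 2.36% of all genes, which says only that these letters are not in these windows. The windows of 4 genes that the results turn on, and that overlap no annotated exon, are shown 5′ to 3′ on the coding strand, ending at the base before the transcript start, with the motif letters in capitals. RBCS2B (chr5:15382072-15382321, minus strand) had 3 I-boxes and 1 G-box, RCA (chr2:16573693-16573942, minus strand) had 1 I-box, and GLDP1 (chr4:15931423-15931672, minus strand) and GGT1 (chr1:8272022-8272271, minus strand) had 1 G-box each, 33 and 82 bases before the transcript start. RBCS2B, RCA and GLDP1 were among the genes that responded to bicarbonate in oePsbS, whereas GGT1 did not pass the test there. The windows of RBCS1A, RBCS3B, GAPB and SBPASE, which also responded, held none of these motifs. Those of TKL2, CP12-2 and CP12-3, which did not pass, held a G-box or an I-box. A link between motifs and the response was not tested.
RBCS2B: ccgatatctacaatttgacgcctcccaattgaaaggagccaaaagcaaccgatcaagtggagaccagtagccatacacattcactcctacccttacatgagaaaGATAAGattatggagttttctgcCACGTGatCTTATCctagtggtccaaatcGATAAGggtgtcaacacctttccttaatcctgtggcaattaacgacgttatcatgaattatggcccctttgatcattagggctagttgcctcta
RCA: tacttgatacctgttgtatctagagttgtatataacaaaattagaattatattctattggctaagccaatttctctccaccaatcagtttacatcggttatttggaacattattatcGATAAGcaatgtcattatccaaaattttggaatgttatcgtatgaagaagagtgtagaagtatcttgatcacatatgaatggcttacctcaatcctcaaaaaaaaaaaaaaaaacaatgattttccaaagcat
GLDP1: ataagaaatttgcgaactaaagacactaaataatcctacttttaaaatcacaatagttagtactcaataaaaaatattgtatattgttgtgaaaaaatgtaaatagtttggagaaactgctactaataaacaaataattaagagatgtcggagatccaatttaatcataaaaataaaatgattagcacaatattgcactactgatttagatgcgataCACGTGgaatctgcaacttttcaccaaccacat
GGT1: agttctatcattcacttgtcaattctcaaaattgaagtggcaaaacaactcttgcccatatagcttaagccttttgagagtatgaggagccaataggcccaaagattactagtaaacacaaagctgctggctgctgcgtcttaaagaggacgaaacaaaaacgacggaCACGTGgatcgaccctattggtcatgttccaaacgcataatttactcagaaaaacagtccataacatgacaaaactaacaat

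Bicarbonate fertilization of oePsbS raised the transcripts of most of both pathways by modest amounts. In the edgeR quasi-likelihood test, 34 of the 42 genes were higher with bicarbonate than with water at an adjusted p under 0.05 and none was lower, where 15.4% of all genes tested passed and 8.16% were higher. The 34 comprised 19 of 23 Calvin cycle genes and 15 of 19 photorespiratory genes. The median log2 fold change of the 42 was 0.37, against -0.0024 for all genes, 41 of the 42 values were positive, and none passed with a log2 fold change above 1, the size the study asked for, which 1.34% of all genes passed (1 of the 42 did without water replicate 1 or without bicarbonate replicate 1). Without each of the 6 libraries in turn, 25 to 37 genes passed. Leaf samples are mixtures, so more cells with these transcripts and more transcripts per cell cannot be told apart.

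All 4 small subunit genes and RCA rose. RBCS1B (AT5G38430) had 2028, 2627 and 2504 CPM with bicarbonate and 1434, 1114 and 1061 CPM with water in oePsbS, with no overlap. Its log2 fold change was 1.00 ± 0.12 (SE, adjusted p = 0.0013), the largest of the 42. RBCS2B (AT5G38420) had 2986, 3561 and 3672 CPM with bicarbonate and 2365, 2166 and 2139 CPM with water (0.62 ± 0.08, adjusted p = 0.0015). The treatments did not overlap for RBCS3B or RBCS1A either. RBCS3B (AT5G38410) had 6487, 7361 and 7321 CPM with bicarbonate and 5124, 4912 and 4786 CPM with water (0.52 ± 0.06, adjusted p = 0.0011). RBCS1A (AT1G67090), the main isoform, had 14366, 15242 and 15671 CPM with bicarbonate and 12785, 11522 and 11124 CPM with water (0.36 ± 0.06, adjusted p = 0.0053). This was the smallest log2 fold change of the family. RCA (AT2G39730) had 14464, 15119 and 14556 CPM with bicarbonate and 12302, 11568 and 11106 CPM with water, again without overlap (0.34 ± 0.05, adjusted p = 0.0033).

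**Figure D1:**
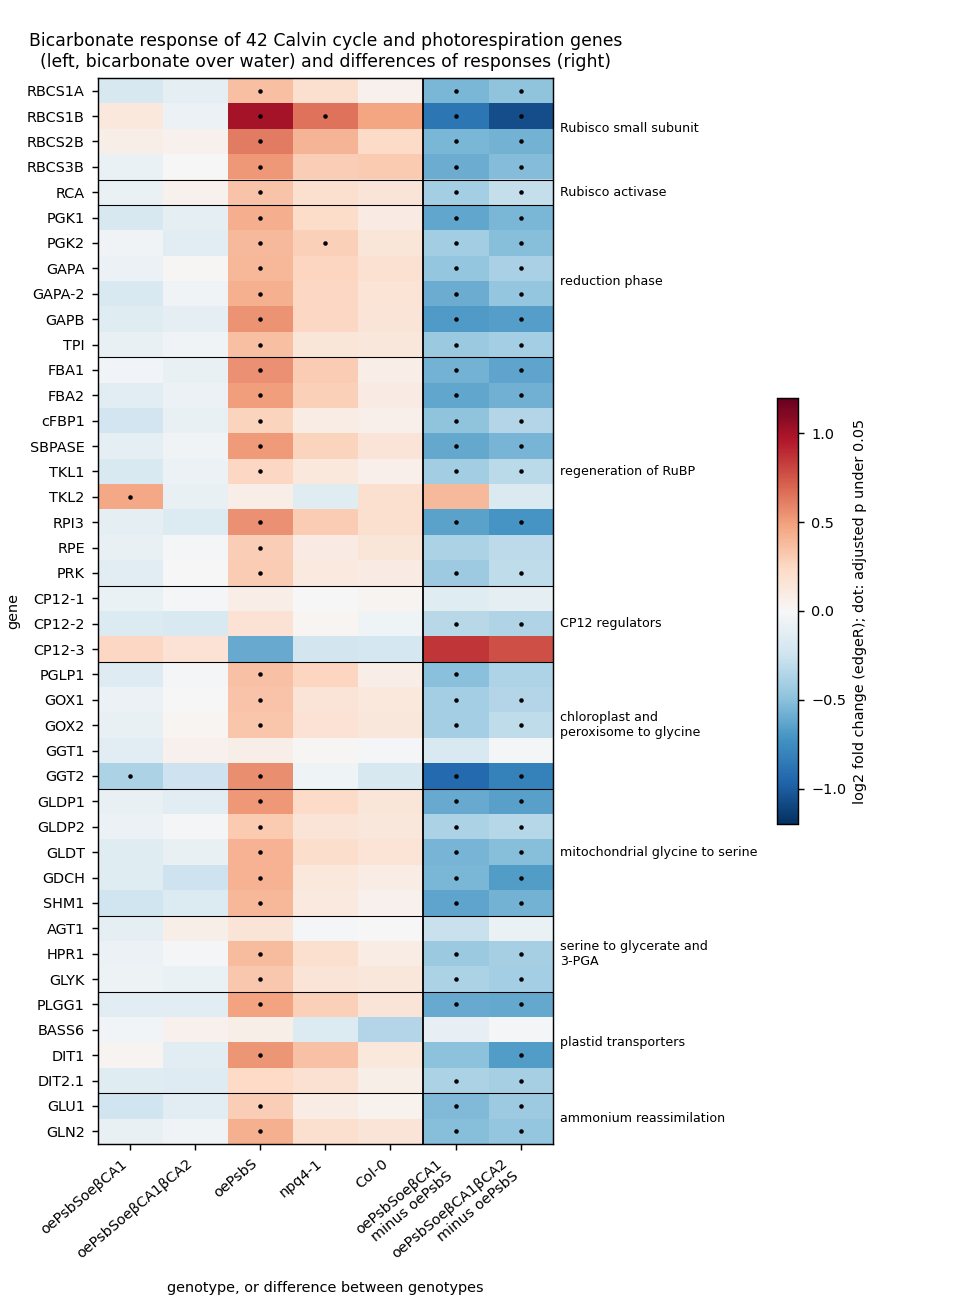
Heat map of log2 fold changes of the 42 genes (rows, grouped by role) for bicarbonate over water in each of the 5 genotypes (left columns) and for the response of each βCA line minus that of oePsbS (right columns), with dots at adjusted p under 0.05. The oePsbS column holds 34 dots, the columns of the other genotypes 0 to 2, and both columns of differences 34.

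All 6 genes of the reduction phase, which turns phosphoglycerate into triose phosphate, rose in oePsbS, by 0.36 to 0.54 on the log2 scale. GAPB, the subunit that gives the plastid dehydrogenase its light regulation, had 2289, 2384 and 2317 CPM with bicarbonate and 1661, 1598 and 1576 CPM with water. Its libraries of each treatment lay within a narrow range, and its log2 fold change of 0.54 ± 0.05 had the smallest adjusted p of the 42 (0.00065). The partner subunits GAPA and GAPA-2 rose by 0.40 and 0.42, the phosphoglycerate kinases PGK1 and PGK2 by 0.44 and 0.39, and plastid triosephosphate isomerase (TPI) by 0.36.

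Of the 9 genes that regenerate RuBP, 8 rose in oePsbS. Sedoheptulose bisphosphatase (SBPASE), which commits carbon to regeneration, had 1298, 1350 and 1269 CPM with bicarbonate and 963, 907 and 897 CPM with water (0.51 ± 0.06, adjusted p = 0.0011). The treatments were well apart. The aldolases FBA1 and FBA2 rose by 0.55 and 0.50, and ribose phosphate isomerase RPI3 by 0.55. Fructose bisphosphatase cFBP1, transketolase TKL1, ribulose phosphate epimerase RPE and PRK rose less, by 0.26, 0.25, 0.30 and 0.31. PRK had 1785, 1912 and 1904 CPM with bicarbonate and 1506, 1523 and 1528 CPM with water (adjusted p = 0.0060). TKL2 did not pass, at 0.08 with a 95% confidence interval of -0.14 to 0.31.

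The CP12 proteins hold GAPDH and PRK in an inactive complex in the dark. None of their 3 genes passed the edgeR test in oePsbS, with 2 at an unadjusted p under 0.05, where 30.5% of all genes were. CP12-1 had 523, 544 and 537 CPM with bicarbonate and 529, 527 and 474 CPM with water. These overlapped, and the log2 fold change was 0.08 (95% confidence interval -0.07 to 0.22, adjusted p = 0.48). CP12-2 gave 0.17 (0.01 to 0.34, adjusted p = 0.13). CP12-3 gave the only negative value of the 42, -0.60 (-1.10 to -0.10, adjusted p = 0.10), from 3.32, 4.23 and 2.23 CPM with bicarbonate and 4.89, 4.97 and 5.07 CPM with water, which did not overlap but are low levels.

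In photorespiration, 4 of the 5 genes that lead from phosphoglycolate to glycine rose in oePsbS: the phosphatase PGLP1 by 0.36, the glycolate oxidases GOX1 and GOX2 by 0.34 and 0.33, and the aminotransferase GGT2 by 0.56. GGT2, the minor of the pair of glutamate:glyoxylate aminotransferases, had 128, 115 and 114 CPM with bicarbonate and 93.9, 77.2 and 72.0 CPM with water (adjusted p = 0.0060). GGT1, the major isoform, had 2330, 2343 and 2323 CPM with bicarbonate and 2286, 2231 and 2204 CPM with water. These treatments were apart as well, but by little (0.07, 95% confidence interval -0.05 to 0.18, adjusted p = 0.42).

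All 5 mitochondrial genes from glycine to serine rose in oePsbS, by 0.32 to 0.52. GLDP1, the P protein that decarboxylates glycine, had 2050, 2269 and 1939 CPM with bicarbonate and 1506, 1408 and 1464 CPM with water (0.52 ± 0.07, adjusted p = 0.0015). SHM1, which makes serine from a further glycine, had 2378, 2423 and 2443 CPM with bicarbonate and 2063, 1783 and 1675 CPM with water (0.40 ± 0.08, adjusted p = 0.0079). No library with water reached one with bicarbonate in either gene. The second P protein gene GLDP2 rose by 0.32, the T protein gene GLDT by 0.42 and the H protein gene GDCH by 0.41.

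The steps back to the chloroplast were less uniform. Peroxisomal hydroxypyruvate reductase HPR1 and glycerate kinase GLYK rose in oePsbS, by 0.38 and 0.33, whereas serine:glyoxylate aminotransferase AGT1 did not pass (0.16, 95% confidence interval 0.03 to 0.28, adjusted p = 0.087). Of the plastid transporters, the glycolate/glycerate exchanger PLGG1 and the oxoglutarate/malate exchanger DIT1 rose by 0.48 and 0.53. The glutamate/malate exchanger DIT2.1 (0.24, 0.07 to 0.41, adjusted p = 0.058) and BASS6 (0.07, -0.23 to 0.38, adjusted p = 0.76) did not pass. For the recapture of ammonium, plastid glutamine synthetase GLN2 had 1757, 1840 and 1754 CPM with bicarbonate and 1440, 1291 and 1274 CPM with water (0.43 ± 0.07, adjusted p = 0.0031). Ferredoxin glutamate synthase GLU1, its partner, had overlapping treatments, with 1560, 1732 and 1378 CPM with bicarbonate and 1406, 1200 and 1216 CPM with water, and was close to the threshold (0.30 ± 0.09, adjusted p = 0.0498).

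In Col-0 bicarbonate moved none of the 42 genes past the threshold in edgeR, where 0.51% of all genes passed. At an unadjusted p under 0.05 there were 2 (RBCS1B and RBCS3B), where 9.42% of all genes were, and DESeq2 passed 1. The median log2 fold change was 0.13, against 0.00 for all genes, with 37 positive values. RBCS1B had 1608, 1708 and 2442 CPM with bicarbonate and 1480, 1239 and 1420 CPM with water. All bicarbonate libraries were above the water libraries, but replicate 3 stood far above the other two (0.48, 95% confidence interval 0.13 to 0.82, adjusted p = 0.34). GAPB had 1911, 2154 and 2436 CPM with bicarbonate and 2053, 1898 and 1875 CPM with water (0.16, -0.08 to 0.40, adjusted p = 0.73). These overlapped. The intervals are wide, so a response of these genes in Col-0 is neither shown nor bounded near 0.

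In npq4-1, RBCS1B and PGK2 were higher with bicarbonate, where 1.06% of all genes passed and 0.323% were higher. At an unadjusted p under 0.05 there were 25 of the 42, where 15.2% of all genes were. RBCS1B had 1595, 1964 and 1603 CPM with bicarbonate and 941, 1288 and 1047 CPM with water, with no overlap (0.65 ± 0.12, adjusted p = 0.040). PGK2 had 181, 178 and 176 CPM with bicarbonate and 148, 146 and 144 CPM with water (0.29 ± 0.06, adjusted p = 0.049). The median of the 42 was 0.18, against -0.01 for all genes. The count is unstable: DESeq2 passed 17, and edgeR passed 11 without bicarbonate replicate 1, 1 without water replicate 2 and none without bicarbonate replicate 2 or 3 or water replicate 1 or 3. The share of all genes that passed in these other fits is not given, so their counts speak only to stability.

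In the double line bicarbonate changed 2 of the 42 genes, in opposite directions, where 1.93% of all genes passed, 1.27% higher and 0.659% lower. TKL2 had 21.4, 20.2 and 20.1 CPM with bicarbonate and 13.8, 14.6 and 16.2 CPM with water, so the treatments did not overlap (0.47 ± 0.10, adjusted p = 0.036). GGT2 was lower, with 95.8, 103 and 98.0 CPM with bicarbonate and 137, 122 and 127 CPM with water (-0.38 ± 0.07, adjusted p = 0.022). The median of the 42 was -0.10, against 0.01 for all genes, and 1 gene was higher and 10 lower at an unadjusted p under 0.05, which 14% of all genes had. DESeq2 passed 4. Without the library labelled replicate 3 of the bicarbonate group GGT2 alone passed in edgeR (-0.37, adjusted p = 0.043), TKL2 did not (0.48, adjusted p = 0.056), and the median was -0.13. There was 1 gene without bicarbonate replicate 2, and none passed without bicarbonate replicate 1 or any of the water replicates 1, 2 and 3. GAPB had 1867, 1892 and 1803 CPM with bicarbonate and 2058, 1993 and 2123 CPM with water in this line (-0.15, 95% confidence interval -0.29 to -0.01, adjusted p = 0.33), all bicarbonate libraries being the lower.

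None of the 42 passed in the triple line, where 2.01% of all genes did. GDCH alone had an unadjusted p under 0.05, as 11.9% of all genes did (-0.25, 95% confidence interval -0.47 to -0.03, adjusted p = 0.33), and DESeq2 passed 0. The median of the 42 was -0.07. RBCS1B had 1754, 1543 and 1977 CPM with bicarbonate and 1487, 2151 and 1935 CPM with water, fully overlapping (-0.07, -0.37 to 0.23, adjusted p = 0.91). Averaged over the 5 genotypes, 20 of the 42 genes were higher with bicarbonate, where 15.8% of all genes passed and 7.73% were higher, with a median of 0.10. RBCS1B led with 0.43 ± 0.07 (adjusted p = 7.8e-05), followed by RBCS2B at 0.27 and RBCS3B at 0.21, while RBCS1A did not pass (0.06, -0.02 to 0.13, adjusted p = 0.33). Without the library labelled oePsbSoeβCA1, bicarbonate, replicate 3 there were 17, again with a median of 0.10, and the 7 genes compared with and without it stayed on their side of the threshold.

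**Figure D2:**
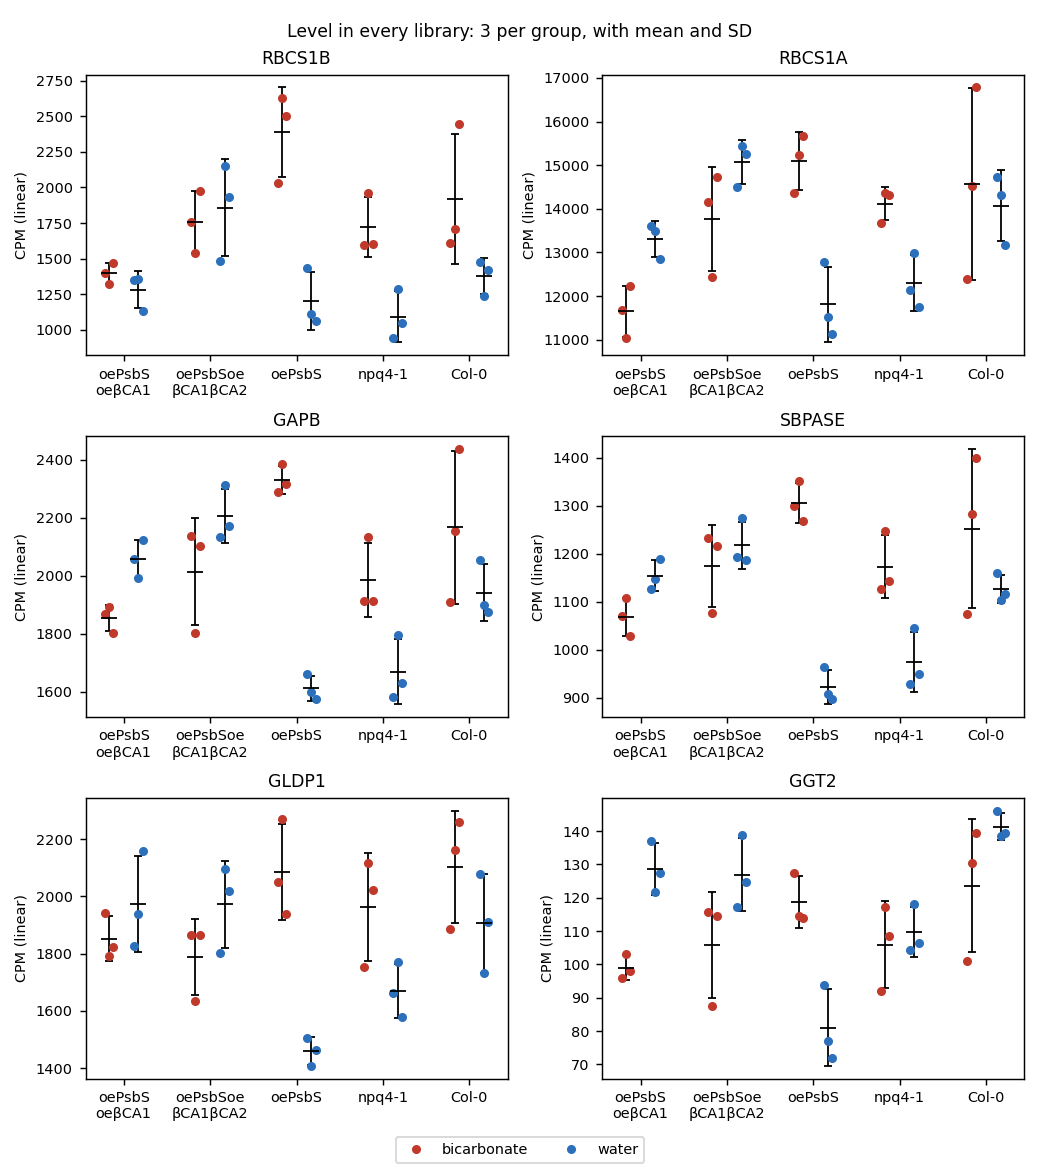
Scaled read counts (CPM, linear axes that do not start at 0) of RBCS1B, RBCS1A, GAPB, SBPASE, GLDP1 and GGT2 in every library, with mean and SD of the 3 libraries of each group, by genotype, bicarbonate left of water. In oePsbS the bicarbonate libraries lie above the water libraries in all 6 panels, from 2289 to 2384 CPM against 1576 to 1661 CPM for GAPB, whereas in both βCA lines the mean of GAPB is lower with bicarbonate.

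Whether the genotypes differed in their response was tested directly, as the response of each βCA line minus the response of oePsbS, in a fit of all 30 libraries. This compares lines and does not isolate the transgenes, given the levels of BCA1 and BCA2 above. The response of the double line was lower than that of oePsbS for 34 of the 42 genes and higher for none, where 8.06% of all genes passed and 3.87% were lower. The median difference was -0.49, against 0.01 for all genes. Leaving out each library in turn gave 26 to 36 genes. Without the library labelled replicate 3 there were 32, with a median of -0.49, and of 20 named genes 19 stayed on their side of the threshold, all but CP12-2 (-0.36, adjusted p = 0.055), with shifts of -0.10 to 0.03 in their log2 values. GAPB differed by -0.68 ± 0.11 (adjusted p = 0.0015), PGK1 by -0.62 ± 0.10 (adjusted p = 0.0021) and GGT2, which fell with bicarbonate in the double line and rose in oePsbS, by -0.93 ± 0.16 (adjusted p = 0.0029). FBA2 at -0.62, SBPASE at -0.61 and cFBP1 at -0.49 followed. All 4 small subunit genes differed (RBCS1B by -0.86, RBCS3B by -0.59, RBCS2B and RBCS1A by -0.55 each), as did RCA (-0.41), PRK (-0.44), CP12-2 (-0.34), GLDP1 (-0.61), SHM1 (-0.64), GLU1 (-0.53) and GLN2 (-0.51).

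For the triple line the difference was negative for 34 of the 42 genes as well, and positive for none, where 13.1% of all genes passed and 5.98% were lower, with a median of -0.42. RBCS1B differed by -1.07 ± 0.22 (adjusted p = 0.0032), and was the only gene of the 42 that passed beyond a log2 difference of 1, where 3.12% of all genes did (none of the 42 did without water replicate 3 or bicarbonate replicate 2 of oePsbS, or without replicate 2 of either treatment of the triple line). GAPB differed by -0.66 ± 0.11 (adjusted p = 0.00055), RPI3 by -0.71 ± 0.12 (adjusted p = 0.00089), PGK2 by -0.51, PGK1 by -0.55, FBA1 by -0.63 and FBA2 by -0.58. GLDP1 differed by -0.66 and SHM1 by -0.56. The count fell to 22 without water replicate 2 of the triple line, and to 22 without its bicarbonate replicate 2.

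The genes that did not pass were RPE, TKL2, CP12-1, CP12-3, GGT1, AGT1 and BASS6 in both lines, with DIT1 in the double line (-0.49, 95% confidence interval -0.88 to -0.10, adjusted p = 0.11) and PGLP1 in the triple line (-0.37, -0.68 to -0.05, adjusted p = 0.11). GGT1 differed by -0.18 (-0.36 to 0.00) for the double and by -0.02 (-0.20 to 0.16) for the triple line. CP12-3 had positive differences of 0.86 (0.17 to 1.55, adjusted p = 0.11) and 0.78 (0.08 to 1.47, adjusted p = 0.13). Both differences subtract the same response of oePsbS, so they share its 6 libraries and are not independent.

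The response of oePsbS minus that of Col-0 passed for none of the 42 in edgeR, where 0.0316% of all genes passed. At an unadjusted p under 0.05 there were 24, where 13.3% of all genes were, DESeq2 passed 7, and the median was 0.24. GGT2 had the smallest p (0.74 ± 0.16, adjusted p = 0.071) and GAPB gave 0.37 (95% confidence interval 0.16 to 0.59, adjusted p = 0.14). Without Col-0 bicarbonate replicate 3 there were 12, and without oePsbS water replicate 1 there were 2. That the response was particular to oePsbS relative to the wild type was therefore not shown. Any difference of response among the 5 genotypes passed for 29 of the 42 genes, where 5.44% of all genes passed, for 18 without oePsbS water replicate 3, and for 30 without the library labelled oePsbSoeβCA1, bicarbonate, replicate 3. GAPB (adjusted p = 0.0016) and PGK1 (adjusted p = 0.0021) had the smallest values.

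The genotypes were also compared within each treatment. With water, oePsbS had lower levels than Col-0 for 15 of the 42 genes and higher levels for none, where 8.56% of all genes passed and 4.98% were lower, and the median was -0.20. They were 10 Calvin cycle and 5 photorespiratory genes. GGT2 had 93.9, 77.2 and 72.0 CPM in oePsbS and 146, 139 and 139 CPM in Col-0, far apart (-0.80 ± 0.12, adjusted p = 0.00011). GLDP1 had 1506, 1408 and 1464 CPM in oePsbS and 2076, 1732 and 1910 CPM in Col-0 (-0.39 ± 0.09, adjusted p = 0.0056). FBA1 (-0.41), PGK1 (-0.34), GDCH (-0.40), SHM1 (-0.33), SBPASE (-0.29), GAPB (-0.27) and CP12-2 (-0.24) also passed. None of the 4 small subunit genes did, with 1 at an unadjusted p under 0.05, where 21.2% of all genes were. RBCS1A was close (-0.25, 95% confidence interval -0.42 to -0.08, adjusted p = 0.054), and RCA did not pass (-0.12, -0.25 to 0.01, adjusted p = 0.29). The count depended on single libraries: it was 6 when Col-0 water replicate 1 was left out, 9 for Col-0 water replicate 2, 7 for oePsbS water replicate 2 and 4 for oePsbS water replicate 3.

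Against the same oePsbS water libraries, 11 genes were higher in the double line, where 5.75% of all genes passed and 3.53% were higher, with a median of 0.19, and 23 in the triple line, where 13.7% passed and 7.76% were higher, with a median of 0.26. GGT2 was above oePsbS in every library, with 137, 122 and 127 CPM in the double line and 117, 139 and 125 CPM in the triple (0.67 ± 0.12, adjusted p = 0.0012, and 0.65 ± 0.12, adjusted p = 0.00053). GAPB had 2058, 1993 and 2123 CPM in the double line and 2133, 2312 and 2171 CPM in the triple, against 1661, 1598 and 1576 CPM in oePsbS (0.35 ± 0.07, adjusted p = 0.0060, and 0.45 ± 0.07, adjusted p = 0.00028). PGK1 differed by 0.37 and 0.50 in the same order. PGK2 (0.43), GDCH (0.66), RBCS1A (0.35) and RBCS1B (0.63) passed as well in the triple line. The count of the double line fell to 6 and 4 without oePsbS water replicates 2 and 3 and to 6 without its own water replicate 3, and that of the triple line to 14 without its water replicate 2.

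With water neither βCA line differed from Col-0 in any of the 42 genes in edgeR, where 0.0684% and 0.0737% of all genes passed for the double and triple lines. At an unadjusted p under 0.05 there were 0 and 8, where 8.72% and 8.88% of all genes were, and DESeq2 passed 0 and 1. DIT1 came closest in the double line (-0.22, 95% confidence interval -0.50 to 0.05, adjusted p = 0.68) and PGK2 in the triple line (0.22, 0.09 to 0.34, adjusted p = 0.26). npq4-1 with water did not pass for any gene either, where 0.705% of all genes passed, although DESeq2 passed 3. At an unadjusted p under 0.05, 17 of the 42 genes were lower, where 16.2% of all genes were lower or higher. FBA1 was nearest (-0.32 ± 0.08, adjusted p = 0.060). Without Col-0 water replicate 2 there was 1 gene, and without npq4-1 water replicate 2 there were 2. Any difference among the 5 genotypes with water passed for 19 of the 42 genes, where 12.8% of all genes passed, with PGK2 (adjusted p = 8.9e-05) and PGK1 (adjusted p = 0.00022) leading.

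With bicarbonate, oePsbS did not differ from Col-0 in any of the 42 genes, where 0.274% of all genes passed. At an unadjusted p under 0.05 there were 2, where 12.3% of all genes were, and DESeq2 passed 1. RBCS2B had 2986, 3561 and 3672 CPM in oePsbS and 2240, 2509 and 3016 CPM in Col-0, with 1 library overlapping (0.40 ± 0.11, adjusted p = 0.12). Without Col-0 bicarbonate replicate 3 there was 1 gene, and 1 without oePsbS bicarbonate replicate 1. npq4-1 gave none either, where 0.0421% of all genes passed, with 3 at an unadjusted p under 0.05 (7.24% of all genes) and 0 in DESeq2, led by TKL2 (-0.47 ± 0.10, adjusted p = 0.15), and 1 without Col-0 bicarbonate replicate 3. The triple line gave none, where 2.09% passed, and 1 in DESeq2. At an unadjusted p under 0.05, 8 of the 42 genes were lower, where 11.2% of all genes were lower or higher. In edgeR GLDP2 led (-0.23 ± 0.07, adjusted p = 0.10).

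The double line with bicarbonate was lower than Col-0 in 10 of the 42 genes, where 2.38% of all genes passed and 0.489% were lower, with a median of -0.23. RBCS1A had 11672, 11050 and 12229 CPM in the double line and 12391, 14516 and 16786 CPM in Col-0, apart by a small margin (-0.32 ± 0.08, adjusted p = 0.034). RPI3 (-0.37), RBCS3B (-0.35), GLDT (-0.29), DIT2.1 (-0.29) and cFBP1 (-0.24) passed too. This count was the least stable: 29 without Col-0 bicarbonate replicate 1, 2 without replicate 2 and 0 without replicate 3, 0 and 4 without bicarbonate replicates 1 and 2 of the double line, and 1, RBCS3B (-0.43, adjusted p = 0.046), without its library labelled replicate 3, where the median was -0.24 and of 6 named genes 1 stayed on its side of the threshold. RBCS1A then stood at -0.36 (adjusted p = 0.074). A fit of these 6 libraries alone gave 0.

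Against oePsbS with bicarbonate, 30 of the 42 genes were lower in the double line, where 19.5% of all genes passed and 8.8% were lower, with a median of -0.28, and 26 were lower without the library labelled replicate 3, with a median of -0.29. Of 14 named genes, GLU1 alone was lost without it (-0.25, adjusted p = 0.097). RBCS2B had 1985, 2000 and 2348 CPM in the double line and 2986, 3561 and 3672 CPM in oePsbS (-0.69 ± 0.11, adjusted p = 0.00018). RBCS1B had 1401, 1322 and 1469 CPM in the double line and 2028, 2627 and 2504 CPM in oePsbS (-0.77 ± 0.16, adjusted p = 0.0015). Both genes were apart in every library. RCA (-0.28), PRK (-0.27), GAPB (-0.33), SBPASE (-0.29), SHM1 (-0.28), GLU1 (-0.29) and GLN2 (-0.37) passed as well, but GLDP1 did not (-0.17, 95% confidence interval -0.35 to 0.01). In the triple line 8 genes were lower, where 8.5% of all genes passed and 2.75% were lower, with a median of -0.18, led by GLDP2 (-0.34 ± 0.07, adjusted p = 0.0033) and RBCS2B (-0.46 ± 0.11, adjusted p = 0.0072). That count fell to 2 and 3 without oePsbS bicarbonate replicates 2 and 3 and to 5 and 1 without bicarbonate replicates 1 and 2 of the triple line. The oePsbS libraries enter the response of oePsbS, the contrasts with oePsbS and the differences of responses, so these counts are not independent of each other.

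Genes that work with these pathways are given for comparison. Of 14 genes of Rubisco assembly and other Calvin steps, 8 rose and 1 fell in oePsbS with bicarbonate (median 0.41). The chaperonin subunits CPN60B2 and CPN60B1, which fold Rubisco large subunits, rose by 0.82 and 0.57, and the assembly factor RAF2 by 0.47, whereas RBCX1, a further assembly chaperone, fell by 0.76. Of 17 isoforms and partners in photorespiration, 5 rose and 1 fell (median -0.01), among them peroxisomal catalase CAT2 (0.60), the mitochondrial carrier BOU (0.55), the lipoamide dehydrogenase mtLPD1 (0.40) and the H protein gene GDCH3 (0.43). Of 16 cytosolic or non-photorespiratory counterparts, 5 rose and 3 fell (median 0.16), such as the aldolase FBA5 (0.47) and the glutamate synthase GLT1 (-0.33). Of 18 light-harvesting genes, also abundant in mesophyll, LHCB4.3 (0.72) and LHCB6 (0.22) rose, and the median was 0.04.

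In the double line minus oePsbS, 7 of the 14 assembly and other Calvin genes were lower and none higher (median -0.49), led by CBBY, which clears an inhibitory Rubisco by-product (-0.55). In the photorespiration partners 5 were lower and 1 higher, and in the light-harvesting genes 2 were lower. Without the library labelled replicate 3, 3 of the 14 were lower (median -0.47), 5 partners were lower and 1 higher, and 3 light-harvesting genes were lower. In the triple line minus oePsbS these counts were 9 lower (median -0.52), 5 lower and 1 higher, and 1 lower. BOU differed by -0.62 and -0.60 and LHCB4.3 by -0.92 in each line.

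**Figure D3:**
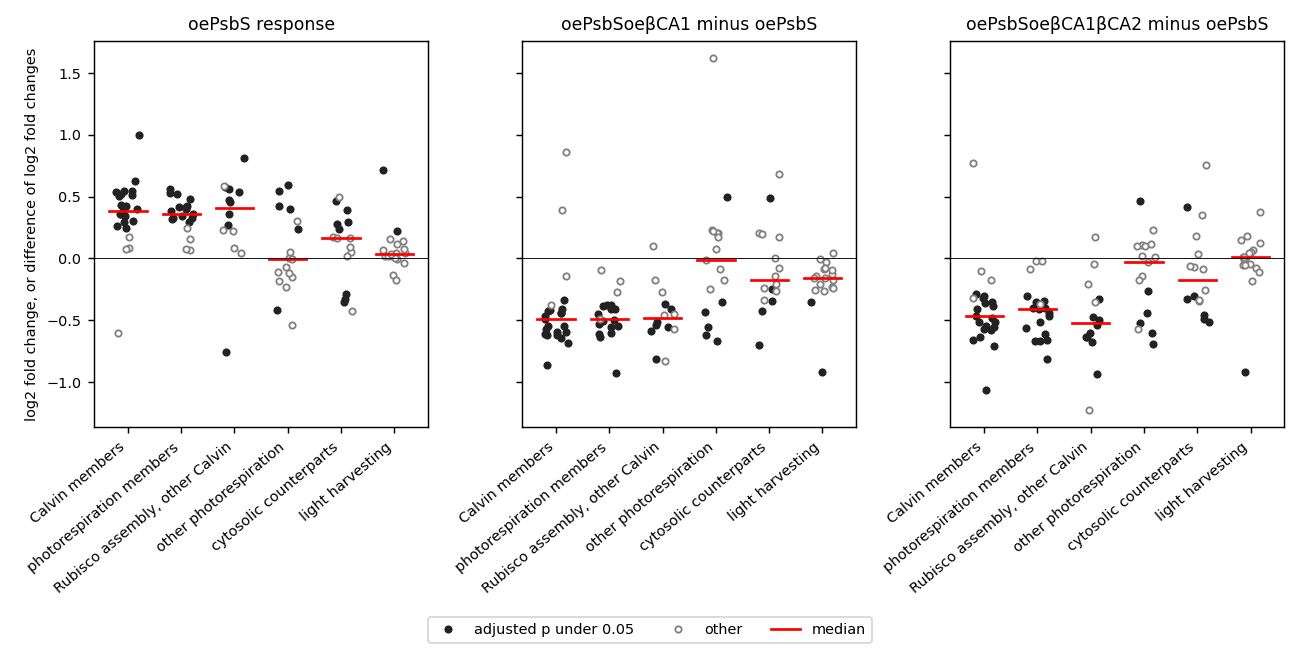
Log2 fold changes with bicarbonate in oePsbS (left panel) and differences of the response of the double line (middle) and triple line (right) from it, for each gene of 6 lists, with filled points at adjusted p under 0.05 and red lines at the medians. All libraries are included. The medians of the light-harvesting genes, 0.04, -0.16 and 0.01, lie nearer 0 than those of the Calvin cycle genes, 0.39, -0.49 and -0.47.

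Other transcripts moved with the response of oePsbS. All 5 morning-phased clock genes rose with bicarbonate in oePsbS, among them CCA1 (0.46), LHY (0.45) and LNK2 (0.46), and their summed level was 1278 to 1420 CPM with bicarbonate and 1012 to 1052 CPM with water. Of 7 later-phased clock genes tested, 4 fell, among them PRR5 (-1.51) and TOC1 (-0.48), and the sum of all 8 listed was 48.4 to 62.2 CPM with bicarbonate and 67.7 to 77.5 CPM with water. Both sums were also apart in npq4-1, at 1205 to 1308 CPM with bicarbonate and 963 to 1044 CPM with water for the morning genes and 59.5 to 68.5 CPM and 80.5 to 92.7 CPM for the later genes. In npq4-1 2 of the 42 genes passed in edgeR, but many more did in DESeq2 or at an unadjusted p under 0.05, as given above. In the double line the morning sums were apart, at 1079 to 1149 CPM with bicarbonate (1079 to 1093 CPM without the library labelled replicate 3) and 913 to 970 CPM with water, but the later sums overlapped, at 66.8 to 80.0 CPM and 79.7 to 93.4 CPM. So it was in the triple line, where none of the 42 passed, with morning sums of 1025 to 1091 CPM with bicarbonate and 897 to 970 CPM with water, and later sums of 70.2 to 81.4 CPM with bicarbonate and at least 78.3 CPM with water. In Col-0 both overlapped, at 1127 to 1282 CPM with bicarbonate and 976 to 1197 CPM with water for the morning genes and 56.0 to 64.8 CPM and 64.7 to 81.4 CPM for the later genes. The differences of responses passed for none of the clock genes in edgeR in the double line, with 2 of the 5 morning and 2 of the 7 later genes at an unadjusted p under 0.05, and for LNK1 (-0.32) and TOC1 (0.70) in the triple line. Without the library labelled replicate 3, none passed in the double line either. At an unadjusted p under 0.05, 3 of the 5 morning genes were then lower and 3 of 8 later genes tested were higher. Summed vasculature markers in oePsbS were 129 to 159 CPM with bicarbonate and 106 to 118 CPM with water, with 1 of 5 genes passing, and guard cell sums were 103 to 107 CPM and 82.1 to 102 CPM, with none of 6 passing and 1 at an unadjusted p under 0.05. PSBS, BCA1 and BCA2 themselves rose with bicarbonate in oePsbS, all 3 passing the test. Summed flower markers in oePsbS were 6.75 to 8.58 CPM with bicarbonate and 7.66 to 17.4 CPM with water, with 2 of 6 tested genes lower, and were 5.47 to 11.7 CPM with bicarbonate (5.47 to 7.18 CPM without the library labelled replicate 3) and 2.19 to 7.55 CPM with water in the double line. They were 5.77 to 12.3 CPM with bicarbonate and 4.72 to 5.31 CPM with water in the triple line. In npq4-1 they were fully apart, at 7.17 to 12.7 CPM with bicarbonate and 1.06 to 5.50 CPM with water, with 1 of 6 genes higher, 5 at an unadjusted p under 0.05 and a median log2 fold change of 1.85. In Col-0 they overlapped, at 6.62 to 12.7 CPM with bicarbonate and 3.95 to 12.4 CPM with water. None of the 7 listed flower genes was at 0 throughout a group. The root markers stayed at or below 0.181 CPM. The hour of harvest is not given per library, and the part of harvest time or of these other tissues in the responses was not tested.

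Several of the genes share sequence with close copies, between which Salmon had to divide reads. The coding sequences of RBCS1B, RBCS2B and RBCS3B, neighbours on chromosome 5, are 96.7% to 97.3% identical, and RBCS1A on chromosome 1 is 89.9% to 90.1% identical to them. PGLP1 (AT5G36700) is identical in coding sequence to AT5G36790, and GOX1 and GOX2, adjacent on chromosome 3, are 92.4% identical. With the copies summed, an alternative chosen after the values were seen, the RBCS B genes rose by 0.63 in oePsbS (adjusted p = 0.0010), the PGLP1 pair by 0.34 (adjusted p = 0.0099) and the GOX pair by 0.34 (adjusted p = 0.0061). The differences from oePsbS passed for all of these sums in both βCA lines, at -0.63, -0.43 and -0.41 for the double and -0.62, -0.43 and -0.34 for the triple line, including the PGLP1 pair in the triple line (adjusted p = 0.011), where PGLP1 alone did not pass. In npq4-1 the RBCS B genes summed gave 0.38 (adjusted p = 0.053).

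The 42 genes together took 6.40% to 8.61% of the reads of a library. In oePsbS they took 8.07% to 8.55% with bicarbonate and 6.40% to 6.89% with water, without overlap. Means were 6.82% with bicarbonate and 7.14% with water for the double line, 7.31% and 7.54% for the triple, 7.81% and 6.81% in npq4-1, and 7.98% and 7.36% in Col-0. Within the small subunit family, RBCS1A held 45.8% to 48.6% of the family's TPM in oePsbS with bicarbonate and 51.8% to 52.1% with water, with 45.8% the lowest of the 30 libraries. These shares are descriptions without a test.

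**Figure D4:**
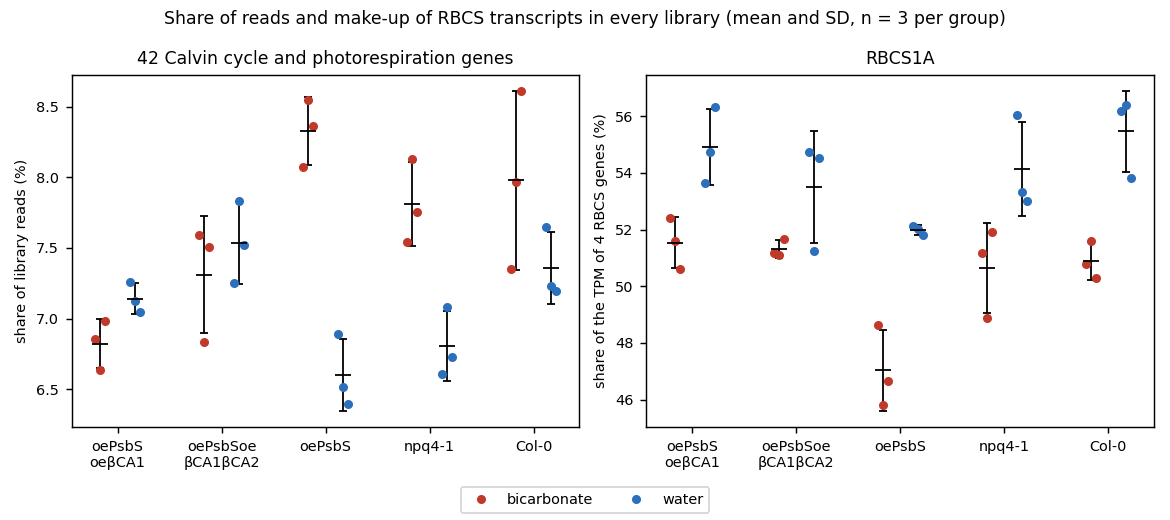
Share of the assigned reads of each library held by the 42 genes (left, percent) and share of the TPM of the 4 small subunit genes held by RBCS1A (right, percent), by genotype with bicarbonate left of water, with the mean and SD of 3 libraries. The axes do not start at 0. In oePsbS the libraries lie at 8.07% to 8.55% with bicarbonate and 6.40% to 6.89% with water in the left panel.

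RCA is transcribed into a long and a short isoform by alternative splicing. Transcript AT2G39730.1 held 43.2% to 50.6% of the TPM of RCA over all libraries, AT2G39730.2 held 44.2% to 50.0% and AT2G39730.3 held 4.57% to 8.55%. The share of AT2G39730.1 differed between bicarbonate and water by 0.92 percentage points for the double line, 0.34 for the triple, 2.49 in oePsbS, 1.18 in npq4-1 and 2.96 in Col-0. In two-sided exact permutation tests p was 0.6, 1, 0.2, 0.6 and 0.1 in that order, where 0.1 is the smallest p that 3 libraries against 3 allow, so no difference could pass 0.05 in this design. The share of AT2G39730.2 did not overlap between treatments in the double line (difference -1.34 points, bicarbonate minus water), oePsbS (-2.41) and Col-0 (-2.23), each at that smallest p, whereas it differed by 0.41 in the triple line (p = 0.8) and by -1.27 in npq4-1 (p = 0.3), all by exact permutation. Single libraries moved the difference of AT2G39730.1, which ranged with each left out in turn from 0.019, without the library labelled replicate 3, to 2.07 in the double line, from -0.95 to 1.34 in the triple line, from 0.030 to 2.66 in npq4-1 and from 2.05 to 3.44 in Col-0, while in oePsbS it stayed above 0 and reached 3.54.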

How the data were processed

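Stranded mRNA libraries of rosette leaves were sequenced on a NovaSeq. The authors ran Salmon (version not given in the sources used here) on TAIR10 cDNAs and deposited, per transcript, estimated counts and TPM. Here the estimated counts of 48268 transcripts were summed per locus and rounded to whole numbers. Libraries held 15346368 to 18326430 reads, and CPM were scaled by TMM factors. Low counts were removed with filterByExpr (at its minimum count of 10 and minimum total of 15), and the rest were tested with the quasi-likelihood test of edgeR 4.0.16 (R 4.3.3), with Benjamini-Hochberg adjustment over all genes tested and a threshold of 0.05. Responses were fitted on the 6 libraries of a genotype, contrasts and differences of responses on all 30. Biological coefficients of variation were 0.0989 to 0.125. None of 435 library pairs held identical values.

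Alternatives were DESeq2 1.42.0, RLE scaling, no filter, limma 3.58.1 on log2(TPM + 1), other libraries in the fit, the replicate number as a block, and omission of single libraries. The scripts were tested on simulated data. The genes and lists were chosen with earlier results of these data known. Named genes were up to 6 per direction by adjusted p, the gene with the smallest p where none passed, and 15 listed genes (RBCS, RCA, PRK, GAPB, SBPASE, CP12, GLDP1, SHM1, GLU1 and GLN2). Up to 4 genes of each comparison list were named. Other named genes, among them the rest of the 42 in oePsbS and the clock genes, were chosen after their values were seen.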

Additional observations from a re-analysis of the deposited data

Results flagged for a closer look

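Responses that differed between genotypes by a test of the difference itself (edgeR, all 30 libraries) are listed here as values. In the double line 34 of the 42 genes differed from oePsbS, where 8.06% of all genes passed. In the triple line 34 did, where 13.1% of all genes passed. Among the 5 genotypes 29 differed, where 5.44% of all genes passed. Every such gene of either line had the smaller, or the opposite, response in the βCA line.

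In the double line minus oePsbS, the differences on the log2 scale were -0.86 for RBCS1B, -0.59 for RBCS3B, -0.55 for RBCS2B, -0.55 for RBCS1A and -0.41 for RCA. Those of the reduction and regeneration phases were -0.68 for GAPB, -0.62 for PGK1, -0.62 for FBA2, -0.61 for SBPASE, -0.49 for cFBP1, -0.44 for PRK and -0.34 for CP12-2. In photorespiration they were -0.93 for GGT2, -0.64 for SHM1, -0.61 for GLDP1, -0.53 for GLU1 and -0.51 for GLN2.

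In the triple line minus oePsbS, the differences were -1.07 for RBCS1B, -0.71 for RPI3, -0.66 for GAPB, -0.63 for FBA1, -0.58 for FBA2, -0.55 for PGK1 and -0.51 for PGK2. In photorespiration they were -0.66 for GLDP1 and -0.56 for SHM1. Both sets rest on the same 6 libraries of oePsbS.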

How the results depend on the processing

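Over all comparisons, 118 of 136 counts of genes that passed stayed within 1.5 times under another test, scaling, filter, choice of libraries or the replicate block, and so did 173 of 213 with 1 library left out. Of 888 values of named genes under other settings, 838 kept their direction and their side of the threshold, and of 1236 with 1 library left out, 1094 did, while 127 lost the threshold, 12 passed it and 3 changed sign. The counts of 34 for the oePsbS response and for each difference from it stayed within 1.5 times under nearly all of these. The exceptions were for the triple line, with its water replicate 2 or its bicarbonate replicate 2 left out (22 genes each). The genes behind these counts were not all the same: 31 passed for the response and both differences. DESeq2 passed 1 gene for the Col-0 response, 17 for npq4-1, 4 for the double line and 7 for oePsbS minus Col-0. With water it passed 3 for npq4-1 and 1 for the triple line against Col-0. With bicarbonate it passed 1 for oePsbS, 20 for the double and 1 for the triple line against Col-0, and 15 in the triple line against oePsbS. Fitting only the libraries compared gave 1 for npq4-1 against Col-0 with water, 0 for the double line against Col-0 and 5 for the triple line against oePsbS, both with bicarbonate. The npq4-1 response had 6 genes without the filter and 0 in limma on TPM, and the double line response 0 in limma. Limma on TPM moved the median of all genes to 0.11 in the double line minus oePsbS. The cause of these changes was not tested. Counts under other settings are given without the share of all genes that passed there, here and above, so they speak only to stability.

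Same-numbered libraries showed no strong shared deviation: the 15 correlations ranged from -0.114 to 0.138, and 3 exceeded 0.1. Such values cannot tell whether the replicates were grown or harvested as matched sets. With the replicate number as a block, 12 genes passed for the npq4-1 response and 0 for that of the double line, and 1 gene rose in oePsbS beyond a log2 fold change of 1.

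With each library left out in turn, the responses passed for 0 to 11 genes in npq4-1, 0 to 1 in the double line and 25 to 37 in oePsbS. The ranges with water were 0 to 2 for npq4-1 and 4 to 17 for oePsbS against Col-0, and 4 to 12 for the double and 14 to 26 for the triple line against oePsbS. Those with bicarbonate were 0 to 1 for npq4-1, 0 to 1 for oePsbS and 0 to 29 for the double line against Col-0, and 1 to 9 for the triple line against oePsbS. The differences of responses gave 0 to 12 for oePsbS minus Col-0, 26 to 36 for the double and 22 to 35 for the triple line minus oePsbS, and 18 to 33 for any difference.

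Values near 0 changed sign, as did the difference of the RCA transcript share in the triple line (-0.95 to 1.34 points with single libraries left out). In limma on TPM the oePsbS response was -0.0077 for BASS6, -0.011 for CP12-1, -0.016 for GGT1 and -0.0036 for TKL2, and the triple line minus oePsbS was 0.076 for GGT1. With single libraries left out, that difference of GGT1 ranged from -0.036 to 0.0072, and the response of RBCS1B in the triple line from -0.21 to 0.048. With the RBCS copies summed it was 0.0050. With 3 libraries per group, small changes of weakly expressed genes such as CP12-3 and BASS6 could not be resolved.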
